A study of Mus musculus with 24 samples.

Results

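The urea cycle genes examined in mouse liver were Cps1, Otc, Ass1, Asl, Arg1 and Slc25a15, chosen by gene symbol as genes of the known pathway. All 6 were found among the 18314 entries of the deposited gene table, and all 6 passed the filter on low counts that left 13832 genes for testing. The mice were male wild-type C57BL/6. Mice of the HFD + HQHF group were fed a high-fat diet (HFD) as a model of metabolic fatty liver disease and, after 12 weeks, received Huatanqushihuoxue Formula (HQHF), a Chinese herbal formula, by gavage. Mice of the HFD group had the same diet without HQHF, and control mice had a normal diet. The labels used here give neither the HQHF dose behind these libraries nor the age of the mice, and no transgene or deletion was involved. Total RNA was depleted of ribosomal RNA and sequenced by strand, with 4 libraries per group of 9 mice.

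Of the 12 libraries, 10 were compared: HFD + HQHF 1, 2 and 4, HFD 1 to 4, and control 1, 3 and 4. HFD + HQHF 3 and control 2 were left out. A list of 13 hepatocyte markers such as Alb and Apoa1 made up 0.000287% of the counts of HFD + HQHF 3 and 0.00512% of those of control 2, against 7.9% to 14.2% in the other 10, so these 2 libraries went against their liver label. The 6 urea cycle genes were low there as well. Their summed counts were 2116 in HFD + HQHF 3 and 1085 in control 2, against 262623 to 736637 in the other 10. Cps1 had 0 counts in HFD + HQHF 3 and 19 in control 2, and Otc had 0 and 1, while Asl had 1066 and 601. The other 10 libraries held 36198931 to 46454404 counts, and each mouse has its own batch code, so no batch could be separated from the mouse. With all 12 libraries in the fit, none of the 6 genes was called in any comparison, and 1 gene was called in HFD + HQHF against HFD, 7 in HFD against control and 0 in HFD + HQHF against control.

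The urea cycle turns toxic ammonia, released when amino acids are broken down, into urea, which leaves the body in urine. It runs to completion in hepatocytes, mostly those around the portal vein, and is split between the mitochondrion and the cytosol. In the mitochondrion, Cps1 joins ammonia with bicarbonate to form carbamoyl phosphate, Otc passes it to ornithine to make citrulline, and the carrier Slc25a15 exchanges ornithine and citrulline across the inner membrane. In the cytosol, Ass1 joins citrulline with aspartate, Asl splits the product into arginine and fumarate, and Arg1 splits arginine into urea and ornithine.

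Upstream sequences of 3 of the 6 genes, Otc, Slc25a15 and Ass1, were present in the promoter table taken from RefSeq with build GRCm38.p6. These 3 are shown because the other members were not in that table. Otc and Slc25a15 changed in both comparisons with HFD livers described below while Ass1 passed neither edgeR test. A link between sequence and change was not tested. Each line gives the 120 bases that end at the base before an annotated start, read 5′ to 3′ on the gene's strand, and capitals mark the motif GGGCGG, known as a GC box. They lie at chrX:10252110-10252229 on the plus strand for Otc, at chr8:22398622-22398741 on the minus strand for Slc25a15 and at chr2:31470150-31470269 on the plus strand for Ass1.
Otc: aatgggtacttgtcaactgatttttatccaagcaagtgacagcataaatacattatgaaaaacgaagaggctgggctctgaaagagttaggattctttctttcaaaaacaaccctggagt
Slc25a15: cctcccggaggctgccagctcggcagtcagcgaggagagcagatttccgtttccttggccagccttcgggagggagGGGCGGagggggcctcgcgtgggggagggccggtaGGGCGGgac
Ass1: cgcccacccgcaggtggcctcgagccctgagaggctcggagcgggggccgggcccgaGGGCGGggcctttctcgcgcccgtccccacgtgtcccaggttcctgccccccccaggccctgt
The stretch of Otc is poor in G and C, at 37.5% of its bases, against 72.5% for Slc25a15 and 78.3% for Ass1. Windows of 300 bases, from 250 before the start to 50 after it, were searched on both strands for the TATA box TATAAA, the CCAAT box, the GC box GGGCGG, the cyclic AMP element TGACGTCA, the C/EBP element TTGCGCAA, the nuclear receptor element AGGTCA, the HNF4 element CAAAGTCC and the glucocorticoid receptor element AGAACA. Matches were found for the GC box alone: at 1 place in Ass1 and at several places in both annotated windows of Slc25a15, where 2 of the matches overlap each other by their letters. Of all 32851 windows in the table, 35.7% held GGGCGG. No match to the other 7 motifs, which 0.183% to 37.4% of all windows held, were found in the windows of these genes. A match or its absence describes these letters alone.

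Read counts were scaled by the TMM method and expressed per library size as CPM, so the values of a gene can be compared between libraries but not with those of a gene of another length. Tests are edgeR quasi-likelihood tests with Benjamini-Hochberg adjustment over all 13832 genes, and a gene was called at an adjusted p under 0.05. Each library is labelled as a separate mouse. The p-values set a difference between groups against the spread between libraries, estimated over all groups.

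Otc, the mitochondrial enzyme that makes citrulline, fell in HFD livers against controls and rose in HFD + HQHF livers against HFD livers. It had 309, 336 and 269.8 CPM in HFD + HQHF livers 1, 2 and 4, against 186, 151, 119.6 and 136 CPM in HFD livers 1 to 4 and 345, 299 and 257 CPM in control livers 1, 3 and 4. Every HFD liver lay below every liver of the other groups, while HFD + HQHF and control livers overlapped. The mean was 305 ± 33.3 CPM (SD, n = 3) in HFD + HQHF livers, 148 ± 28.3 CPM (SD, n = 4) in HFD livers and 300.3 ± 44.0 CPM (SD, n = 3) in control livers. In HFD livers the fitted level was 49.3% of that in controls (log2 fold change -1.02, SE 0.19, adjusted p = 0.00583, edgeR). In HFD + HQHF livers it was 206% of that in HFD livers (log2 fold change 1.04, SE 0.19, adjusted p = 0.00797, edgeR). Otc was the only member called in both comparisons whichever of the 10 libraries was left out.

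Slc25a15, the ornithine carrier, followed the same order with a smaller change. It had 384, 303 and 454 CPM in HFD + HQHF livers, against 197, 160.0, 259 and 257 CPM in HFD livers and 356, 391 and 365 CPM in control livers. HFD livers lay below both other groups without overlap. The log2 fold change was -0.76 (SE 0.21, adjusted p = 0.0242, edgeR) for HFD against control and 0.80 (SE 0.21, adjusted p = 0.0261, edgeR) for HFD + HQHF against HFD. The fall in HFD livers was no longer called without HFD 1, control 1, control 3 or control 4, where the adjusted p reached 0.061. The rise with HQHF was no longer called without HFD + HQHF 1, HFD + HQHF 4 or HFD 1, where it reached 0.0823.

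Cps1, which catalyses the entry step, did not pass the test in either comparison with HFD livers. It had 4008, 2567 and 9379.9 CPM in HFD + HQHF livers, against 4798, 5092, 2069 and 5552 CPM in HFD livers and 7249.8, 7688 and 8886 CPM in control livers. All HFD livers lay below all control livers, whereas HFD + HQHF livers spanned a range wider than that of the HFD group, with HFD + HQHF 4 above and HFD + HQHF 2 below most of it. The SD was 67.5% of the mean in HFD + HQHF livers, 35.9% in HFD livers and 10.7% in control livers. The log2 fold change was -0.86 (95% interval -1.83 to 0.11, adjusted p = 0.169, edgeR) for HFD against control and 0.28 (95% interval -0.69 to 1.26, adjusted p = 0.684, edgeR) for HFD + HQHF against HFD. Without HFD + HQHF 4 the difference from HFD livers had the opposite sign, at -0.41.

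Ass1, the cytosolic enzyme that uses citrulline, was called by edgeR in neither comparison with HFD livers. It had 3756, 2473 and 5508 CPM in HFD + HQHF livers, against 2912, 3014, 1557 and 3176 CPM in HFD livers and 3700.0, 5086 and 4696 CPM in control livers. HFD livers lay below control livers without overlap, and HFD + HQHF 2 lay within the HFD range. The log2 fold change was -0.75 (95% interval -1.47 to -0.03, adjusted p = 0.108, edgeR) for HFD against control and 0.55 (95% interval -0.17 to 1.27, adjusted p = 0.247, edgeR) for HFD + HQHF against HFD. DESeq2, run as an alternative, called the fall of Ass1 in HFD livers, at -0.79 (adjusted p = 0.0341), and did not call Cps1. HFD 3 had the lowest level of Cps1, Otc and Ass1 among HFD livers. Its summed hepatocyte markers were also low, at 56055 CPM against 101023 to 103082 CPM in the other HFD livers, and its 9 adipocyte markers were high, at 295 CPM against 12.1 to 83.9 CPM. The part of these markers in the 3 low values was not tested.

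Asl, which releases arginine and fumarate, had the largest fitted changes of the 6 genes in both comparisons with HFD livers. It had 1647, 731 and 1978 CPM in HFD + HQHF livers, against 277, 307, 424 and 751 CPM in HFD livers and 997, 1384 and 1707 CPM in control livers. HFD livers lay below all control livers, but HFD + HQHF 2 at 731 CPM was just below HFD 4 at 751 CPM. Mean Asl was 1452 ± 646 CPM (SD, n = 3) in HFD + HQHF livers, 439.7 ± 217 CPM (SD, n = 4) in HFD livers and 1363 ± 356 CPM (SD, n = 3) in control livers. In HFD livers the fitted level was 32.3% of that in controls (log2 fold change -1.63, SE 0.41, adjusted p = 0.0179, edgeR). In HFD + HQHF livers it was 330.2% of that in HFD livers (log2 fold change 1.72, SE 0.41, adjusted p = 0.0195, edgeR). The fall was not called without control 4 (adjusted p = 0.0619), nor the rise without HFD + HQHF 1 or 4, where the adjusted p reached 0.0702.

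Arg1, which releases urea, was nearly the same in the 3 control livers and much lower in HFD livers. It had 1718, 1082 and 1673 CPM in HFD + HQHF livers, against 603, 625, 720.1 and 1041 CPM in HFD livers and 1551, 1579 and 1661 CPM in control livers. HFD livers lay below both other groups without overlap, although HFD 4 at 1041 CPM came close to HFD + HQHF 2 at 1082 CPM. The control SD was 3.55% of the mean, against 23.8% in HFD + HQHF livers and 27.1% in HFD livers. The log2 fold change was -1.10 (SE 0.25, adjusted p = 0.0123, edgeR) for HFD against control and 1.00 (SE 0.25, adjusted p = 0.0224, edgeR) for HFD + HQHF against HFD. The fall was called whichever library was left out. The rise was not called without HFD + HQHF 1, HFD + HQHF 4 or HFD 1, where the adjusted p reached 0.0893.

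**Figure D1:**
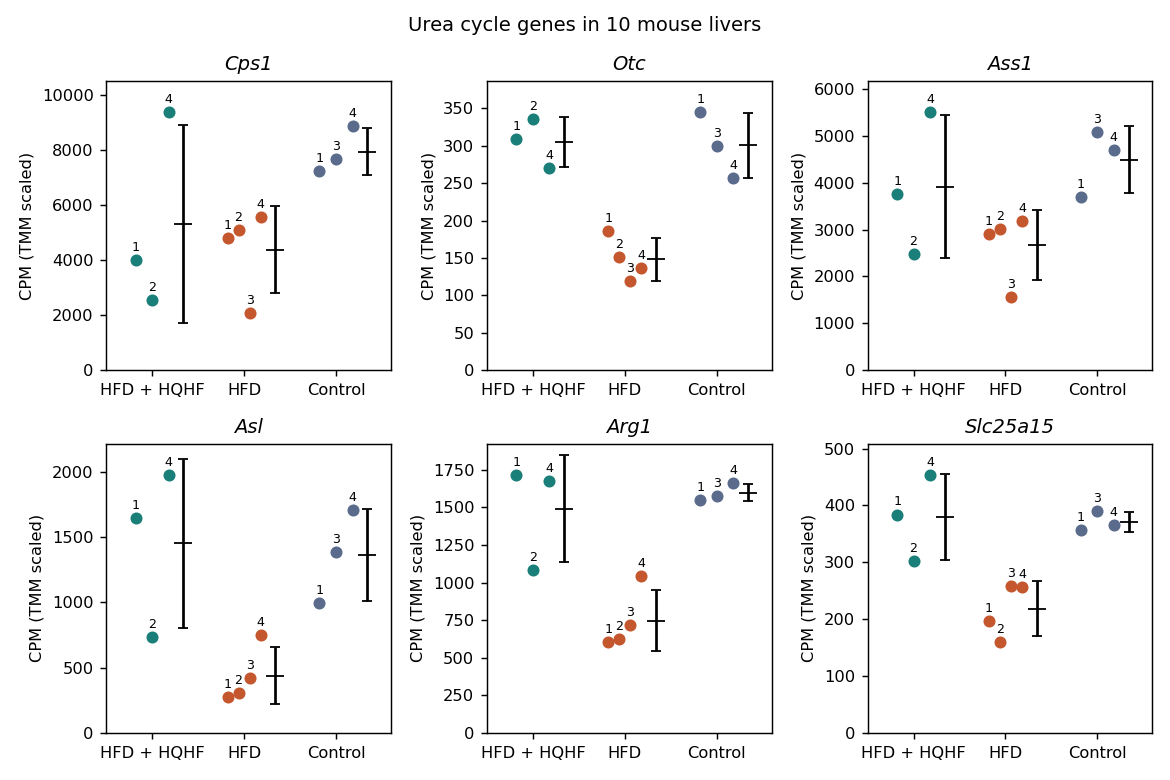
TMM-scaled CPM (vertical axis, linear from 0) of the 6 urea cycle genes in HFD + HQHF, HFD and control livers. Points are libraries with their number above, and the bar beside each group is the mean ± SD; HFD livers lie below control livers in all 6 panels, and HFD + HQHF 4 stands far above HFD + HQHF 1 and 2 for Cps1.

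Counted together, 4 of the 6 genes (Otc, Asl, Arg1 and Slc25a15) fell in HFD livers against controls, and none rose. Over all tested genes, 9.89% were called lower and 16.3% were called higher in the same comparison. With TMM scaling, all 6 genes had every HFD liver below every control liver, as did 15.9% of tested genes. The median log2 fold change of the 6 was -0.94, against 0.06 over all genes. The same 4 genes rose in HFD + HQHF livers against HFD livers and none fell, where 7.85% of tested genes were called higher and 11.1% were called lower. On the same scale, Otc, Arg1 and Slc25a15 had every HFD + HQHF liver above every HFD liver, as did 13.5% of tested genes. The median of the 6 was 0.90, against -0.07 over all genes. Without control 4 the count of 4 became 2 for HFD against control, and for HFD + HQHF against HFD it became 1 without HFD + HQHF 1 or 4 and 2 without HFD 1. Both comparisons use the same 4 HFD libraries and are not independent. In bulk liver, fewer hepatocytes and less RNA of these genes per hepatocyte cannot be told apart.

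HFD + HQHF livers were not separated from control livers for any of the 6 genes. The log2 fold change of HFD + HQHF over control was 0.02 for Otc (95% interval -0.42 to 0.46), 0.04 for Slc25a15 (-0.46 to 0.53), -0.10 for Arg1 (-0.69 to 0.49), 0.09 for Asl (-0.88 to 1.06), -0.20 for Ass1 (-0.98 to 0.58) and -0.58 for Cps1 (-1.63 to 0.47). The adjusted p ran from 0.817 to 0.990 (edgeR), and the intervals leave room for a difference in either direction. The share of genes called in this comparison was 0.0%: edgeR called 0 of 13832 genes, with 1008 at an unadjusted p under 0.05, and DESeq2 called 72, none of them a urea cycle gene.

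The size of the changes depended on how libraries were scaled. TMM factors were 0.823 to 0.939 in HFD + HQHF libraries, 1.20 to 1.42 in HFD libraries and 0.763 to 0.892 in control libraries, so this scaling lowered HFD values relative to raw shares of the library. With library totals in place of TMM, the median of all genes lay at 0.66 for HFD against control and at -0.62 for HFD + HQHF against HFD on the log2 scale. On that scale 50.9% of all tested genes were called higher and 1.11% lower for HFD against control, and 0.99% were called higher and 47.0% lower for HFD + HQHF against HFD, so counts and signs there are read against this shift. The share of called genes that were lower was then 2.14%, against 37.7% with TMM, for HFD against control, and 97.9%, against 58.5% with TMM, for HFD + HQHF against HFD. Of the 6 genes Asl alone was then called, at -1.01 (adjusted p = 0.041, edgeR) in HFD livers against controls and 1.14 (adjusted p = 0.028, edgeR) in HFD + HQHF livers against HFD livers. Otc was at -0.44 (adjusted p = 0.0855, edgeR) and 0.51 (adjusted p = 0.0551, edgeR) in the same comparisons. Cps1 was at -0.26 for HFD + HQHF against HFD, above the median of all genes there. The median of the 6 genes with library totals was -0.36 for HFD against control and 0.33 for HFD + HQHF against HFD. As CPM of library totals, HFD livers overlapped control livers for all 6 genes. The highest HFD and lowest control values were 223 and 196 CPM for Otc and 940.4 and 858 CPM for Asl. Otc alone still had every HFD + HQHF liver, the lowest at 228 CPM, above every HFD liver. The share of all genes without overlap on this scale was not counted. Together the 6 genes took 0.703% to 1.63% of all counts in HFD + HQHF livers, 0.725% to 1.37% in HFD livers and 1.22% to 1.47% in control livers.

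Markers of hepatocytes and of some other cells differed between the same groups. Over all tested genes, 9.89% were called lower and 16.3% higher for HFD against control. For HFD + HQHF against HFD, 7.85% were called higher and 11.1% lower. The 13 hepatocyte markers summed to 107603 to 141567 CPM in HFD + HQHF livers, 56055 to 103082 CPM in HFD livers and 129688 to 163426 CPM in control livers, with none at 0, and 4 of 13 fell in HFD livers while 3 of 13 rose with HQHF. As a share of raw counts the same markers overlapped between groups, at 9.26% to 12% in HFD + HQHF livers, 7.9% to 12.9% in HFD livers and 11.2% to 14.2% in control livers. Their part in the changes of the urea cycle genes was not tested beyond the scaling given next. Markers of monocytes and recruited macrophages summed to 105 to 144 CPM in HFD + HQHF livers, 305 to 826 CPM in HFD livers and 96.8 to 145 CPM in control livers, and 10 of 12 rose in HFD livers while 9 of 12 fell with HQHF. Markers of stellate cells and fibroblasts ran from 394 to 491 CPM in HFD + HQHF livers, 479 to 1372 CPM in HFD livers and 364 to 463 CPM in control livers, and 7 of 11 rose in HFD livers while 7 of 11 fell with HQHF. HFD 4 was highest for both lists, at 826 and 1372 CPM. Cholangiocyte markers summed to 19.4 to 28.4 CPM in HFD + HQHF livers, 20.3 to 389 CPM in HFD livers and 23.6 to 28.5 CPM in control livers. HFD 4 was again highest, and 2 of 7 rose in HFD livers while 2 of 7 fell with HQHF. Spp1 is on both the macrophage and the cholangiocyte list, so these lists are not independent. Neutrophil markers summed to 4.39 to 6.72 CPM in HFD + HQHF livers, 6.61 to 18.9 CPM in HFD livers and 3.38 to 3.49 CPM in control livers, and all 6 tested of 8 listed rose in HFD livers while 0 were called with HQHF. As shares of tested genes, 30.8% of hepatocyte markers fell in HFD livers and 23.1% rose with HQHF. For rises in HFD livers and falls with HQHF, the shares were 83.3% and 75.0% (macrophage), 63.6% each (stellate) and 28.6% each (cholangiocyte). Of 11 Kupffer cell markers, 2 rose and 4 fell in HFD livers, and 4 rose with HQHF. Of 9 T and NK cell markers, 2 rose in HFD livers. None of 8 endothelial or 7 B and plasma cell markers was called in either comparison. The part of these other cells in the changes of the urea cycle genes was not tested.

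Scaling each library to its hepatocyte marker total shifted the whole table as well. The median of all genes was then 0.87 for HFD against control and -0.56 for HFD + HQHF against HFD. On that scale 49.5% of all tested genes were called higher and 0.434% lower for HFD against control, and 0.412% were called higher and 20.8% lower for HFD + HQHF against HFD. The median of the 6 urea cycle genes was -0.22 and 0.37 in the same comparisons. None of the 6 genes was called in HFD against control, where Asl was at -0.80 (adjusted p = 0.0821, edgeR) and Slc25a15 at 0.10, both below the median of all genes. Asl alone was called in HFD + HQHF against HFD on that scale, at 1.20 (adjusted p = 0.031, edgeR), and Cps1 was at -0.17, above the median of all genes. Control 1 held pancreatic acinar markers at 2610.0 CPM, against 4.23 to 21.6 CPM in the other libraries. Without control 1 and HFD 3, the same count of 4 of 6 genes was called in both comparisons with HFD livers.

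**Figure D2:**
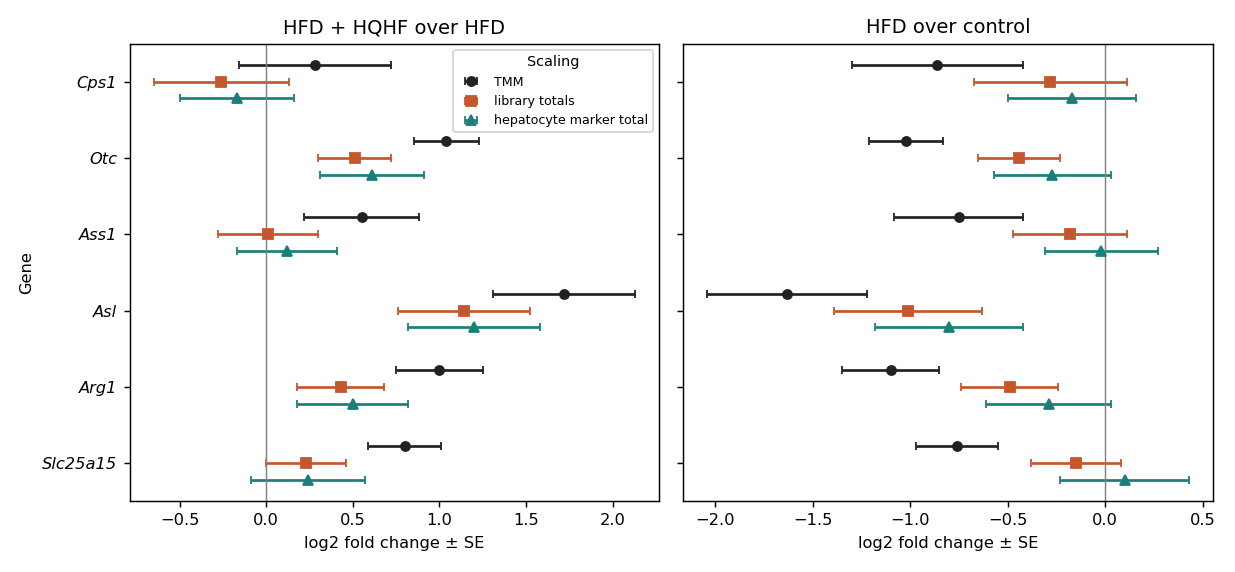
Log2 fold change ± SE (horizontal axis) of each urea cycle gene for HFD + HQHF over HFD (left) and HFD over control (right) under 3 ways of scaling the libraries. Otc, Asl and Arg1 keep their sign under all 3, Cps1 crosses 0 on the left and Slc25a15 on the right, and the TMM value of each gene lies farthest from 0; the median of all genes moves with the scaling, to 0.66 and 0.87 on the right and -0.62 and -0.56 on the left without TMM.

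Shares within the cycle do not depend on library scaling. Each gene's counts were divided by the summed counts of the 6 genes in its library, so gene length still sets the general size of a share. Asl made up 13.9%, 9.75% and 10.3% of the sum in HFD + HQHF livers, against 3.09%, 3.28%, 8.23% and 6.88% in HFD livers and 7.02%, 8.43% and 9.72% in control livers. The HFD + HQHF shares lay above those of both other groups, though HFD + HQHF 2 exceeded control 4 only slightly. Mean Asl was 11.3% ± 2.28 (SD, n = 3) in HFD + HQHF livers and 5.37% ± 2.58 (SD, n = 4) in HFD livers, a difference of 5.95 points (two-sided exact permutation test p = 0.0571, the smallest these group sizes allow, adjusted p = 0.513 over 18 tests). Cps1 made up 39.0% ± 8.44 (SD, n = 3) in HFD + HQHF livers, 49.8% ± 6.55 (SD, n = 4) in HFD livers and 49.5% ± 2.33 (SD, n = 3) in control livers, and the groups overlapped. Ass1 stayed within 26.1% to 33.0% of the sum in all 10 livers. None of the 18 share tests passed, and comparisons of 3 with 3 livers cannot go below p = 0.1 (exact permutation).

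**Figure D3:**
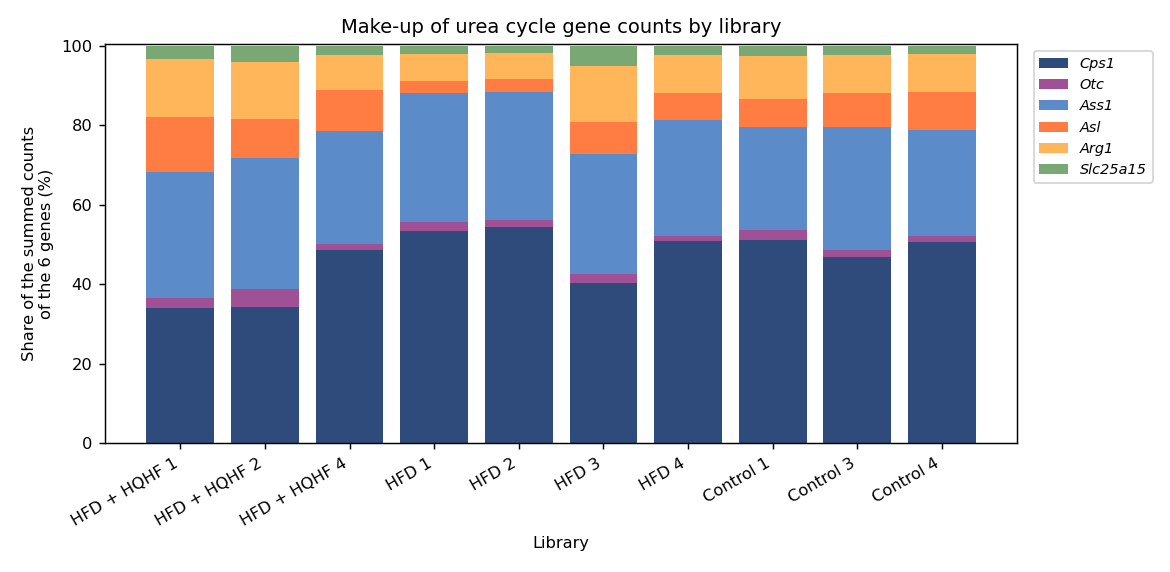
Share of each urea cycle gene in the summed counts of the 6 genes (vertical axis, %) in each of the 10 livers (bars). The Asl segment is smallest in HFD 1 and HFD 2, at 3.09% and 3.28%, and largest in HFD + HQHF 1, at 13.9%.

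Among genes listed for nitrogen supply and exchange around the cycle, Slc25a13, Mdh1 and Aqp9 fell in HFD livers and rose with HQHF. Of 26 genes for nitrogen supply and exchange, 6 fell and 2 rose in HFD livers against controls, and 4 rose and 3 fell in HFD + HQHF livers against HFD livers; the medians were -0.34 and 0.37. As shares of the list, the falls and rises in HFD livers were 23.1% and 7.69%, against 9.89% and 16.3% of all tested genes, and the rises and falls with HQHF were 15.4% and 11.5%, against 7.85% and 11.1%. The rises in HFD livers were below the background and the falls with HQHF near it. Slc25a13, the carrier that exports the aspartate used by Ass1, had 276 to 336 CPM in HFD + HQHF livers, 114 to 197 CPM in HFD livers and 278 to 284 CPM in control livers. It fell in HFD livers (log2 fold change -0.88, SE 0.19, adjusted p = 0.0103, edgeR) and rose with HQHF (0.97, SE 0.19, adjusted p = 0.0107, edgeR). Mdh1, a cytosolic malate dehydrogenase, and Aqp9, a channel for water and small solutes, had the same 2 calls, at -1.03 and -0.90 in HFD livers and 0.68 and 0.86 with HQHF. Nags, which makes the activator that Cps1 requires, averaged 36.6 ± 4.65 CPM (SD, n = 3) in HFD + HQHF livers, 36.8 ± 7.94 CPM (SD, n = 4) in HFD livers and 35.4 ± 12.7 CPM (SD, n = 3) in control livers and was called in neither comparison with TMM, and its sign for HFD + HQHF against HFD changed under RLE scaling. Glul, which fixes ammonia as glutamine around the central vein, averaged 1316 ± 67.6 CPM (SD, n = 3) in HFD + HQHF livers, 952 ± 466 CPM (SD, n = 4) in HFD livers and 1278 ± 248 CPM (SD, n = 3) in control livers, with HFD 4 low at 282 CPM and no call. With library totals 0 of the 26 fell and 5 rose in HFD livers, Nags among them at 0.65 (adjusted p = 0.0331, edgeR), and 1 rose and 5 fell with HQHF, on a scale where 50.9% of all genes rose in HFD livers and 47.0% fell with HQHF. The rise of Mdh1 with HQHF was not called without HFD + HQHF 1 or 2. Called genes of the list numbered 3 without HFD + HQHF 1 or 2 for HFD + HQHF against HFD, and 4 to 5 without any 1 of the control livers for HFD against control.

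The list of genes around arginine and ornithine outside the cycle included Aldh18a1 and Nos2, which rose in HFD livers and fell with HQHF. Agmat, also listed, did the opposite. Of 26 tested genes of 27 listed, 7 rose and 5 fell in HFD livers against controls, and 4 rose and 4 fell in HFD + HQHF livers against HFD livers; the medians were 0.18 and -0.23. As shares of the tested list, the rises and falls in HFD livers were 26.9% and 19.2%, against 16.3% and 9.89% of all tested genes, and the rises and falls with HQHF were 15.4% each, against 7.85% and 11.1%. Aldh18a1, which makes the precursor of proline and ornithine from glutamate, averaged 1.75 ± 0.571 CPM (SD, n = 3) in HFD + HQHF livers, 7.81 ± 2.6 CPM (SD, n = 4) in HFD livers and 1.75 ± 0.308 CPM (SD, n = 3) in control livers. It rose in HFD livers (log2 fold change 2.16, SE 0.33, adjusted p = 0.00328, edgeR) and fell with HQHF (-2.16, SE 0.33, adjusted p = 0.00415, edgeR). Nos2, the inducible nitric oxide synthase that competes for arginine, had 1, 7 and 0 counts in HFD + HQHF livers, against 253, 45, 27 and 25 counts in HFD livers and 4, 3 and 2 counts in control livers. Its log2 fold change was 4.23 (SE 1.14, adjusted p = 0.0236, edgeR) for HFD against control and -4.44 (SE 1.16, adjusted p = 0.027, edgeR) for HFD + HQHF against HFD, and without HFD 1 these were 2.81 and -3.01. Nos2 is also made by activated macrophages, whose markers rose in the same HFD livers, and the part of these cells was not tested. Agmat, annotated as agmatinase, went the other way, at -0.69 (adjusted p = 0.0127, edgeR) and 1.07 (adjusted p = 0.00394, edgeR), and its HFD difference was 0.19 when scaled to hepatocyte markers, where the median of all genes was 0.87. Oat, which turns ornithine into a proline and glutamate precursor, had 1380.4, 1063 and 1472 CPM in HFD + HQHF livers, against 303, 198, 1069 and 235 CPM in HFD livers and 1769.9, 1175 and 1470.4 CPM in control livers. It fell in HFD livers (log2 fold change -1.71, SE 0.52, adjusted p = 0.036, edgeR), a call lost in 8 of the 10 leave-outs. It was not called for HFD + HQHF against HFD (1.53, SE 0.52, adjusted p = 0.0607, edgeR) and was called without HFD 3 (2.41, adjusted p = 0.000953, edgeR). Arg2, the mitochondrial arginase, stayed under 1 CPM in all 10 livers and was not called. The Nos2 rise was not called without any 1 of the control livers, nor its fall with HQHF without HFD + HQHF 1 or 4. With library totals 15 genes of the list rose and 0 fell in HFD livers, and 1 rose and 13 fell with HQHF, where 50.9% of all genes rose in HFD livers and 47.0% fell with HQHF. Called genes of the list numbered 3 without HFD + HQHF 1 and 5 without HFD + HQHF 2 for HFD + HQHF against HFD. For HFD against control they numbered 2, 3 and 4 without control 1, 3 and 4, and 7 without HFD + HQHF 1, HFD + HQHF 2, HFD 1 or HFD 2.

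Genes of amino acid breakdown, the source of the ammonia, included many that fell in HFD livers and rose with HQHF. Of 45 such genes, 31 fell and 0 rose in HFD livers against controls, and 25 rose and 0 fell in HFD + HQHF livers against HFD livers; the medians were -0.85 and 0.76. The falls in HFD livers were 68.9% of the list, against 9.89% of all tested genes, and the rises with HQHF 55.6%, against 7.85%. Hpd, an enzyme of tyrosine breakdown, averaged 2997 ± 554 CPM (SD, n = 3) in HFD + HQHF livers, 1109 ± 64.5 CPM (SD, n = 4) in HFD livers and 3176 ± 429.8 CPM (SD, n = 3) in control livers. Its log2 fold change was -1.52 (SE 0.21, adjusted p = 0.00244, edgeR) for HFD against control and 1.43 (SE 0.21, adjusted p = 0.00391, edgeR) for HFD + HQHF against HFD. Afmid and Tdo2, both of the tryptophan pathway, were at -1.67 and -1.41 in HFD livers and at 1.96 and 0.95 with HQHF, all called. With library totals 9 of the 45 still fell in HFD livers and 7 still rose with HQHF, while 1 rose in HFD livers; of all genes, 1.11% fell in HFD livers and 0.99% rose with HQHF on that scale. Without HFD + HQHF 1, 9 of the 45 were called for HFD + HQHF against HFD, and Tdo2 was not among them; for HFD against control the leave-outs gave 21 to 31. Among the genes named outside the cycle, Afmid, Hpd, G6pc and Cyp2c29 kept both calls with library totals. Aldh18a1 and Nos2 kept both calls too, but in the direction of the shift of all genes. On that scale 50.9% of all genes were called higher in HFD livers and 47.0% lower with HQHF.

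Regulators of amino acid genes and zone markers gave smaller counts. Of 26 regulators, 5 fell and 0 rose in HFD livers, and 5 rose and 0 fell with HQHF, which is 19.2% of the list each time, against 9.89% of all tested genes called lower in HFD livers and 7.85% called higher with HQHF. With library totals 6 rose and 0 fell in HFD livers and 0 rose and 4 fell with HQHF, smaller shares than the 50.9% of all genes that rose and the 47.0% that fell on that scale. Ppara, the fatty acid receptor active in fasting, averaged 476 ± 45.5 CPM (SD, n = 3) in HFD + HQHF livers, 223 ± 59.5 CPM (SD, n = 4) in HFD livers and 497 ± 53.1 CPM (SD, n = 3) in control livers (log2 fold change -1.16, adjusted p = 0.00571 for HFD against control, and 1.09, adjusted p = 0.00954 for HFD + HQHF against HFD, edgeR). Creb3l3, a liver transcription factor of the fasting response, was at -1.03 and 1.07, and Nr1h4, the bile acid receptor, at -0.86 and 0.79, all called with TMM. Of 19 periportal genes, which mark the zone where the urea cycle is most active, 7 fell and 0 rose in HFD livers and 3 rose and 0 fell with HQHF, or 36.8% and 15.8% of the list, against 9.89% and 7.85% of all tested genes. G6pc, the last enzyme of glucose release, was the clearest at -2.06 (adjusted p = 0.000646, edgeR) and 1.41 (adjusted p = 0.00387, edgeR). Igf1, a growth factor made by hepatocytes, was at -1.13 and 0.85, both called, and Fbp1, an enzyme of glucose synthesis, at -0.97 (called) and 0.57 (adjusted p = 0.124, edgeR). Of 22 pericentral genes, which mark the opposite zone, 5 fell and 3 rose in HFD livers, and 4 rose and 1 fell with HQHF. The falls and rises in HFD livers were 22.7% and 13.6% of this list, against 9.89% and 16.3% of all tested genes, and the rises and falls with HQHF 18.2% and 4.55%, against 7.85% and 11.1%. Cyp2c29, a cytochrome P450, averaged 685 ± 267 CPM (SD, n = 3) in HFD + HQHF livers, 100.4 ± 39.6 CPM (SD, n = 4) in HFD livers and 911 ± 230.3 CPM (SD, n = 3) in control livers (log2 fold change -3.18, adjusted p = 0.00117 for HFD against control, and 2.77, adjusted p = 0.0027 for HFD + HQHF against HFD, edgeR). Cyp2e1, a pericentral cytochrome P450, was at -1.55 and 1.55, both called, and Slc1a2, a glutamate carrier, at -1.26 (called) and 0.74 (adjusted p = 0.161, edgeR). A difference between the zones was not tested. With library totals, 1 periportal gene rose and 1 fell in HFD livers and 1 rose and 2 fell with HQHF, while 6 pericentral genes rose and 1 fell in HFD livers and 3 rose and 6 fell with HQHF, beside the same shift of all genes. Without HFD + HQHF 1, the rises of Nr1h4, Creb3l3, Igf1 and Cyp2e1 with HQHF were not called, nor were those of Nr1h4 and Cyp2e1 without HFD + HQHF 2. In HFD livers the call was lost for Cyp2e1 without control 1, for Fbp1 without control 4 and for Slc1a2 without any 1 of the control livers. Across the leave-outs, called genes of either direction numbered 2 to 6 among regulators, 1 to 4 among periportal and 1 to 6 among pericentral genes for HFD + HQHF against HFD, with the lowest counts without HFD + HQHF 1. They numbered 3 to 5, 2 to 7 and 1 to 7 for HFD against control, with the lowest periportal count without control 4 and the lowest pericentral count without control 1.

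**Figure D4:**
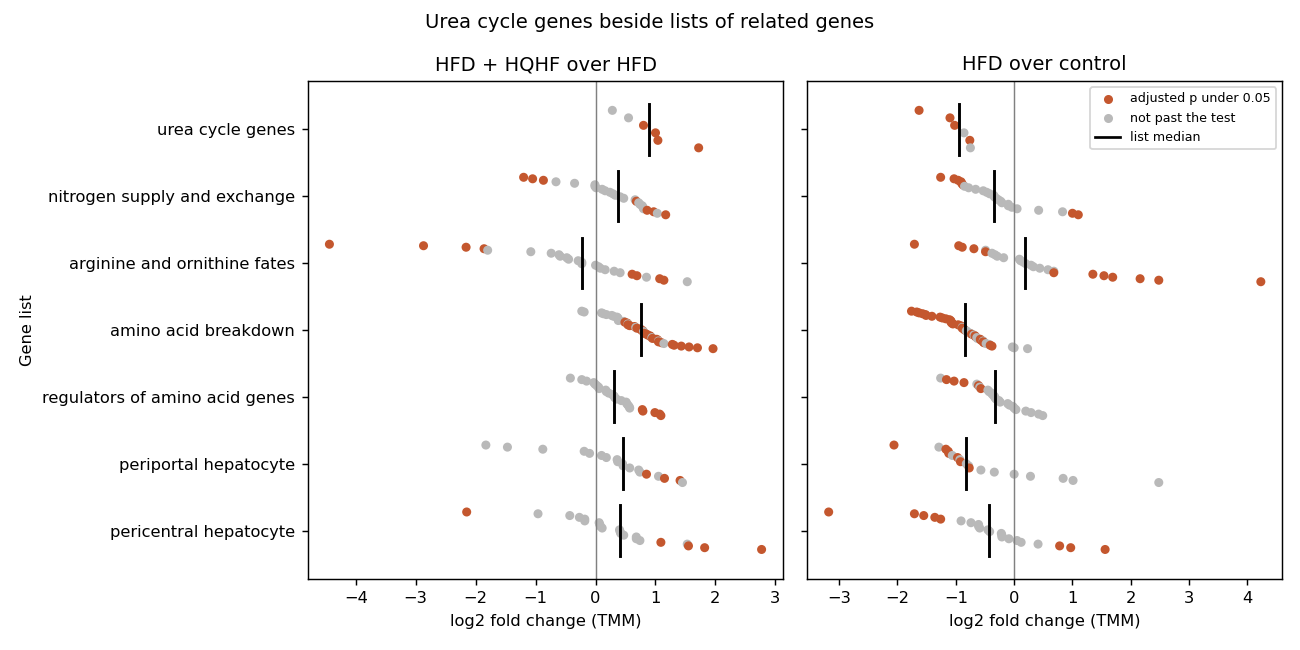
Log2 fold change (horizontal axis, TMM scaling) of each gene in the urea cycle and in 6 lists of related genes, for HFD + HQHF over HFD (left) and HFD over control (right). Coloured points passed an adjusted p of 0.05, grey points did not, and the black line is the list median; the urea cycle genes and the amino acid breakdown genes have medians of 0.90 and 0.76 on the left and -0.94 and -0.85 on the right.

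Genes whose profile over the 10 libraries was nearest to each urea cycle gene were found by the root mean square difference of centred log2 CPM, which describes likeness of level changes and nothing more. Slc25a15 had the closest neighbours, Fbxo21 at 0.09 and Dgka at 0.133, where the median of all genes was 0.583. Ass1 lay nearest to Gpld1 (0.131) and Faah (0.14), Arg1 to Rtf2 (0.153) and Fetub (0.165), and Otc to Iigp1 (0.163) and Zfp108 (0.176). Cps1 lay nearest to Nedd4l (0.2) and Gldc (0.201), and Asl to Por (0.24) and Ahcy (0.302), where the medians of all genes were 0.808 and 1.07. No urea cycle gene was among the 2 nearest genes of another. The 10 libraries differ in diet, HQHF and depth, and the part of these differences in the distances was not tested. The distances are a description of these samples.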

How the data were processed

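The authors deposited whole-number counts per gene for 12 long RNA libraries of mouse liver, and per the submitters' processing notes HISAT2, RSEM and the build GRCm39 were used; their versions and roles were not given in the labels. Per the labels' protocols, RNA was extracted with TRIzol and libraries were made with a stranded kit after removal of ribosomal RNA. Entries without a gene name (116, holding 0.149% of counts) were not removed and were tested where they passed the filter on low counts. The deposited miRNA counts were not analysed here.

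Counts were tested in R 4.3.3 with edgeR 4.0.16 (filterByExpr, TMM, estimateDisp, robust glmQLFit and glmQLFTest over the means of 3 groups), the package data.table (version 1.17.8) and limma 3.58.1. Calls needed a p under 0.05 after Benjamini-Hochberg adjustment. SEs are absolute log2 fold changes over the square root of F, and 95% intervals use the degrees of freedom of the test. Alternatives were DESeq2 1.42.0, other scalings and filters, fits on the compared groups alone, a replicate block, all 12 libraries and leave-outs. Control 1 and HFD 3 were left out together after the data had been seen. Profiles used log2 CPM with a prior count of 2. Plots were made with matplotlib 3.10.9 in Python 3.11.15. The fit was tested on simulated data for HFD against control. It recovered 38% of genes with a simulated absolute log2 change of 1 and 86.9% of those with 2. Of its calls, 4.62% were false.

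The members, gene lists and tests were chosen with earlier results of these data known. Genes outside the cycle were named by rule: Nags, Arg2, Slc25a13, Glul and Oat, the 3 smallest p-values of HFD against control in each of 6 lists, and the 2 nearest profiles of each member. 1 gene that this rule picks is not reported here.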

Additional observations from a re-analysis of the deposited data

Results flagged for a closer look

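Gaps between livers were examined in 34 sets of 4 HFD values, and chance marks about 1 in 20 such sets; 3 sets had a liver far from the others. Ass1 stood at 1557 CPM in HFD 3, against 2912 to 3176 CPM in the other HFD livers, a gap of 0.837 of the range where 0.829 is the limit for 4 samples. Oat stood at 1069 CPM in HFD 3, against 198 to 303 CPM in the other HFD livers, a gap of 0.879 of the range. Nos2 stood at 4.62 CPM in HFD 1, against 0.43 to 0.827 CPM in the other HFD livers, a gap of 0.905 of the range.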

How the results depend on the processing

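With 10 libraries, each comparison with HFD livers had 4 calls among urea cycle genes. RLE scaling, fits on the compared groups alone and both other filters on low counts kept this number. DESeq2 gave 4 for HFD + HQHF against HFD and 5 for HFD against control, the added one being Ass1. Library totals called 1 and 1 of the 6, the hepatocyte marker total 1 and 0, and all 12 libraries 0 and 0, in the same order. Genes called over the whole table, from a main count of 2618 for HFD + HQHF against HFD and 3625 for HFD against control, came to 6633 and 7195 with library totals, to 6911 for HFD against control with the hepatocyte marker total, to 1 and 7 with all 12 libraries, and to 2369 for HFD against control without control 1 and HFD 3. For HFD + HQHF against control, DESeq2 called 72 genes and the fit on those groups alone 1, against 0. Same-numbered libraries did not deviate together (correlations of -0.0542 to 0.119). No pairing by number was seen, though such values cannot show that the mice were unpaired. A replicate block called 1719 genes for HFD + HQHF against HFD, 2840 for HFD against control and 0 for HFD + HQHF against control. Of the 6 genes it called 4, 4 and 0 in the same order.

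Leaving out each library in turn gave 633 to 3301 called genes and 1 to 4 called members for HFD + HQHF against HFD, 1568 to 3882 and 2 to 4 for HFD against control, and 0 to 0 of each for HFD + HQHF against control. The lowest gene counts came without HFD + HQHF 1 (633) and HFD + HQHF 2 (803) for HFD + HQHF against HFD, and without control 1 (1568), control 3 (1757) and control 4 (2078) for HFD against control; without HFD + HQHF 4 and HFD 1 HFD + HQHF against HFD gave 1703 and 1629. Among values whose sign changed in some leave-out, the log2 fold change ran, for HFD + HQHF against HFD, from -0.41 to 0.62 for Cps1, -0.09 to 0.15 for Nags and -0.90 to 0.15 for Arg2, and, for HFD against control, from -0.22 to 0.22 for Nags and -0.05 to 0.45 for Arg2. For HFD + HQHF against control it ran from -0.08 to 0.13 for Otc, -0.53 to 0.04 for Ass1, -0.20 to 0.41 for Asl, -0.21 to 0.09 for Arg1 and -0.11 to 0.18 for Slc25a15.

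Signs that changed for HFD + HQHF against HFD were Cps1 at -0.26 with library totals, -0.17 with the hepatocyte total and -0.08 with all 12 libraries, Nags at 0.03 with DESeq2, 0.03 with RLE scaling, 0.05 in the fit on those groups alone and 0.01 with the replicate block, Glul at -0.09 with library totals and -0.11 with the hepatocyte total, and Nos2 at 0.67 with all 12 libraries. For HFD against control they were Slc25a15 at 0.10, Glul at 0.46 and Agmat at 0.19 with the hepatocyte total, Glul at 0.18 with library totals and Nags at -0.14 without control 1 and HFD 3. For HFD + HQHF against control they were Otc at -0.07 with the replicate block, Ass1 at 0.10 and Arg1 at 0.21 with the hepatocyte total and Asl at -0.09 without control 1 and HFD 3. The cause was not tested.

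Differences in share (percentage points) with each library left out ranged, for HFD + HQHF against HFD, HFD against control and HFD + HQHF against control in that order, over -15.7 to -8.27, -1.3 to 3.46 and -15.4 to -8 for Cps1, over 0.192 to 1.73, -0.309 to 0.174 and 0.103 to 1.64 for Otc, over -0.827 to 1.38, 2.17 to 4.62 and 2.27 to 4.73 for Ass1. They ranged over 4.64 to 6.9, -3.97 to -2.26 and 1.62 to 3.71 for Asl, over 2.33 to 5.25, -2.35 to 0.0854 and 1.57 to 4.49 for Arg1, over -0.0202 to 1.13, -0.232 to 0.872 and 0.482 to 1.33 for Slc25a15. With all 12 libraries, Otc was at 0.364, Arg1 at 0.790 and Slc25a15 at -5.23 for HFD against control. On the same libraries, Ass1 was at -5.08 and Asl at 15.7 (exact permutation p = 0.0286, not adjusted) for HFD + HQHF against HFD. These 12 libraries include HFD + HQHF 3 and control 2, which had almost no hepatocyte marker counts. In HFD + HQHF 3 the urea cycle genes summed to 2116 counts, 1066 of them Asl. No change in the Asl share of liver is therefore read from the 15.7. With Cps1 out of the sum, Ass1 was at -11.3 for HFD + HQHF against HFD and -3.83 for HFD + HQHF against control, and Slc25a15 at -0.197 for HFD + HQHF against HFD. The nearest profiles were not rerun under other settings. With 3 or 4 livers a group, changes as large as those called here may also be missed.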
